A study of Mus musculus with 9 samples.

Results

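Of 10 genes chosen as the tumour suppressor p53 and well-known members of its transcriptional network, 9 were measured on the arrays, out of 19087 genes named in the platform's annotation. They were picked by gene symbol: Mdm2, Mdm4, Phlda3, Eda2r, Tigar, Ccng1, Sesn2, Trp53inp1 and Btg2. Trp53, the gene of p53 itself, is not analysed here. The tissue was cerebellum of SmoA1 mice at postnatal day 20, in 4 Pycard knockout and 5 Pycard wild-type samples. Each sample, labelled with Cy5, was hybridised with one and the same Cy3-labelled reference, pooled cerebella of wild-type animals at postnatal day 16. SmoA1 is an activated form of Smoothened, the signalling receptor of the Hedgehog pathway. The labels call the strain a medulloblastoma strain and name no promoter for the transgene, while published SmoA1 mice carry it under the Neurod2 promoter, active in cerebellar granule neurons and their precursors. Pycard encodes ASC, the adaptor that joins inflammasome sensors to caspase-1. Both genotypes carry SmoA1, so the knockout is compared within SmoA1 animals, and a difference from the pool combines SmoA1, 4 days of age and dye, which cannot be told apart because the dyes were never exchanged.

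p53 is a transcription factor that is kept low by Mdm2, a ubiquitin ligase that marks it for destruction, and by Mdm4, a relative of Mdm2 that binds p53 and blocks its activity. After DNA damage or oncogenic stress p53 accumulates and switches on genes for cell cycle arrest, cell death, DNA repair and metabolism, and also Mdm2, which closes a negative feedback loop. In mouse models of Hedgehog-driven medulloblastoma, loss of p53 speeds tumour growth.

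RefSeq promoter windows (GRCm38.p6, 250 bases before to 50 after the start of transcription) were found for 8 of the 9 genes. The p53 half-site consensus, a decamer of purines, C, a pair of A or T, G and pyrimidines whose reverse complement is the same pattern, was searched without mismatches. It occurred in 2 of the 9 windows of these genes (Mdm4 has 2), against 8.36% of all 32851 windows. A match is a description of the letters and no evidence of binding, and a window without one says nothing about p53 sites elsewhere in the gene. The windows of Mdm2 (chr10:117710709-117711008, minus strand) and Ccng1 (chr11:40755237-40755536, minus strand) are shown because they hold a match, in capitals, which begins 186 and 185 bases before the start. Those of Tigar (chr6:127109503-127109802, minus strand) and Phlda3 (chr1:135765835-135766134, plus strand), without a match and so wholly in lower case, are shown because the genotypes did not overlap in these genes.
Mdm2: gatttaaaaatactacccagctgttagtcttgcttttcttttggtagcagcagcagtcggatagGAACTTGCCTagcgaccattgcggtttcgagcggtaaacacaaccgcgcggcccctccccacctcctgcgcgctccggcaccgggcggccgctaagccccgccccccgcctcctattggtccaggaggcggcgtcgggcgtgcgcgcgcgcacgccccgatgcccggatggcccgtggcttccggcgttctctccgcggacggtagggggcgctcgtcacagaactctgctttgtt
Ccng1: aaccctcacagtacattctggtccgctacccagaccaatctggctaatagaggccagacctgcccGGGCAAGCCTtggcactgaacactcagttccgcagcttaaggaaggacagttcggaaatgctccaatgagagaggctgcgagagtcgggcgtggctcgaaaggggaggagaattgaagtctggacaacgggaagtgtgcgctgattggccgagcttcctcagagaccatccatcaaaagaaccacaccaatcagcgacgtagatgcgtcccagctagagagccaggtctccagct
Tigar: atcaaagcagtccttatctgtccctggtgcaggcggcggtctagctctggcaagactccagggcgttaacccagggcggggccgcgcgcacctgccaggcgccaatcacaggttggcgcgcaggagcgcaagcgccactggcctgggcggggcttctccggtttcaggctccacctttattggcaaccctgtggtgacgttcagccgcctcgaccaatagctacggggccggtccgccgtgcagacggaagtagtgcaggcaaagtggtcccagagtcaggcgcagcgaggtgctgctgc
Phlda3: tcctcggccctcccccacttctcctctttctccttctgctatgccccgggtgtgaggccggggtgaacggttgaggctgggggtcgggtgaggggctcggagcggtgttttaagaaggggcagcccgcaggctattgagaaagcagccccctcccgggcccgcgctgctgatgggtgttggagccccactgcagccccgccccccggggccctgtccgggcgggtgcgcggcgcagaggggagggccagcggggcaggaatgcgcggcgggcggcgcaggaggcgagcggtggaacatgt

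Every value below is a log2 ratio of a sample over the pool, averaged over the array features of a gene, so 1 stands for a ratio of 2 and 0 for equality with the pool. Such ratios show differences between samples and do not show which of the genes was expressed more. The 9 genes had 1 to 11 features each, 30 in all, and no feature held an exact zero. Pycard averaged -2.39 ± 0.64 (SD, n = 4) in knockout and 1.08 ± 0.26 (SD, n = 5) in wild-type. It was lower on each knockout array than on any wild-type array (limma adjusted p = 0.0131), as was each of its features. On knockout 3, feature 39700 read -2.90 and feature 33618 read -0.05. Tested singly, these features had limma adjusted p = 0.000464 and 0.925. Correlations between arrays over all features ran from 0.198 to 0.704. The labels do not state that the samples came from different animals, and p-values therefore cover the spread among these arrays alone, part of which may be technical. Titles name 6 arrays by letters (knockout 1 to 3 and wild-type 1 to 3). The other 3 are named by numbers (knockout 4, wild-type 4 and 5), and no meaning is given. Values within each style are given for some genes, among them Tigar, Phlda3, Mdm2 and Ccng1.

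Tigar was lower in Pycard knockout, and Phlda3 higher, on each knockout array than on any wild-type array. The other 7 genes overlapped between the genotypes, and no gene of the 9 passed the threshold of limma adjusted p under 0.05 over all 30654 values tested. Across all values, 0.00652% of values passed as higher and 0.00979% as lower in knockout. Without adjustment, 2 of the 9 genes had p under 0.05 in limma, where 5.4% of all values did. Of the 9, 7 had a lower and 2 a higher mean in knockout, with a median difference of -0.23 beside 0.0079 over all values. Groups that did not overlap were seen in 0.796% of all values with knockout higher and in 0.946% with knockout lower.

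Tigar (chr6:127085116-127109552 in GRCm38.p6, as are all gene positions here) encodes a fructose-2,6-bisphosphatase, known from human cells to restrain glycolysis and to favour the pentose phosphate pathway. Its log2 ratios were -0.07, 0.16, 0.62 and 0.22 in knockout samples 1 to 4, against 0.85, 1.24, 1.19, 0.95 and 0.80 in wild-type samples 1 to 5. The highest knockout value, on knockout 3, stayed under the lowest wild-type value, on wild-type 5. Tigar averaged 0.23 ± 0.29 (SD, n = 4) in knockout and 1.01 ± 0.20 (SD, n = 5) in wild-type, a knockout level 0.585 times that of wild-type. The difference was -0.77 (SE 0.164, 95% interval -1.15 to -0.40). It had p = 0.00131 in limma, adjusted p = 0.917, and p = 0.00794 in the exact two-sided permutation test, the smallest that 126 divisions of the arrays allow. Within the letter-titled arrays the difference was -0.86, and knockout 4 lay 0.66 below the mean of the number-titled wild-type arrays.

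Tigar has a pair of features for the same transcript, and both had lower means in knockout. Feature 23696 averaged 0.21 in knockout and 1.19 in wild-type, with no overlap between the groups. Feature 27531 averaged 0.25 in knockout and 0.83 in wild-type, and here knockout 3 (0.73) lay above wild-type 1 (0.56). Their limma adjusted p was 0.925 each when features were tested singly.

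Phlda3 (chr1:135766085-135769134) encodes a small pleckstrin homology domain protein that, in human cells, competes with the kinase Akt for membrane lipids. It lay below the pool on all 9 arrays. The log2 ratios were -0.31, -0.50, -0.61 and -0.55 in knockout samples 1 to 4, against -0.87, -0.83, -0.89, -0.68 and -0.84 in wild-type samples 1 to 5. The groups were separated by a narrow gap, between knockout 3 and wild-type 4. Phlda3 averaged -0.49 ± 0.13 (SD, n = 4) in knockout and -0.82 ± 0.09 (SD, n = 5) in wild-type. The difference was 0.33 (SE 0.0959, 95% interval 0.11 to 0.55, limma p = 0.00804, adjusted p = 0.917), and the exact permutation p was 0.0159. Letter-titled arrays alone gave 0.39 and number-titled arrays alone 0.21. A single feature stands for this gene.

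**Figure D1:**
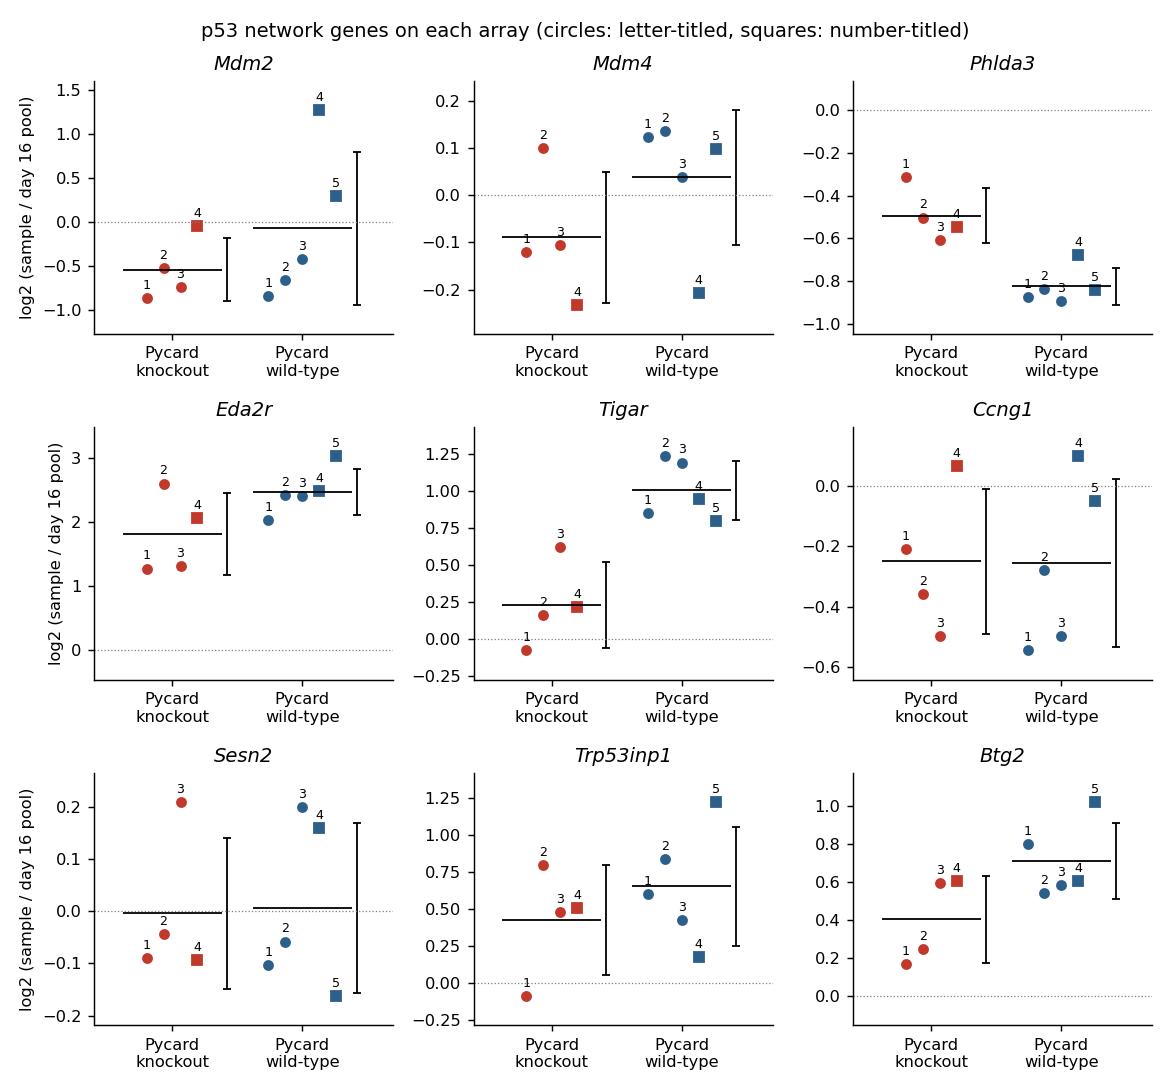
Log2 ratio over the day 16 pool (vertical axis, own scale in each panel) of 9 p53 network genes on 4 Pycard knockout (red, left) and 5 Pycard wild-type (blue, right) SmoA1 arrays. Digits are sample numbers, horizontal lines are group means and bars are SD; Tigar is lower and Phlda3 higher on each knockout array than on any wild-type array, and Mdm2 on wild-type 4 stands at 1.27.

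Eda2r (chrX:97333837-97377234), which encodes a receptor of the tumour necrosis factor family for the ligand ectodysplasin A2, was furthest above the pool of the 9 genes. Its log2 ratios were 1.28, 2.60, 1.32 and 2.07 in knockout samples 1 to 4, against 2.03, 2.43, 2.41, 2.48 and 3.03 in wild-type samples 1 to 5. Knockout 1 and 3 lay below every wild-type array, while knockout 2 lay above all of them except wild-type 5. Eda2r averaged 1.82 ± 0.64 (SD, n = 4) in knockout and 2.48 ± 0.36 (SD, n = 5) in wild-type, which is 3.52 and 5.57 times the pool. The genotypes differed by -0.66 with an SE of 0.313 (95% interval -1.38 to 0.05, limma adjusted p = 0.917). That value was -0.08 after quantile normalization and -0.28 with array weights. Its features, which the annotation assigns to different transcript records, differed in size. Feature 2168 averaged 2.45 in knockout and 3.59 in wild-type, with only knockout 2 (3.18) above the lowest wild-type value (3.15 on wild-type 3). Feature 4382 averaged 1.18 in knockout and 1.36 in wild-type, and the groups overlapped.

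Btg2 (chr1:134074865-134079155) encodes an antiproliferative protein that recruits the CCR4-NOT deadenylase and marks neural progenitors about to form neurons. Its log2 ratios were 0.17, 0.25, 0.59 and 0.61 in knockout samples 1 to 4, against 0.80, 0.54, 0.58, 0.60 and 1.02 in wild-type samples 1 to 5. All 9 arrays lay above the pool, and knockout 1 and 2 lay under every wild-type array. Btg2 averaged 0.40 ± 0.23 (SD, n = 4) in knockout and 0.71 ± 0.20 (SD, n = 5) in wild-type. Knockout minus wild-type came to -0.31 with an SE of 0.148 (95% interval -0.65 to 0.03, limma adjusted p = 0.917), and each of its 3 features had the lower mean in knockout.

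Trp53inp1 (chr4:11156441-11174379) encodes a stress-induced nuclear protein that promotes p53 activity and autophagy. Its log2 ratios were -0.09, 0.80, 0.48 and 0.50 in knockout samples 1 to 4, against 0.60, 0.84, 0.42, 0.17 and 1.23 in wild-type samples 1 to 5. The groups overlapped widely, and only knockout 1 lay below the pool. The genotype difference was -0.23 (SE 0.248, limma adjusted p = 0.952), -0.06 without knockout 1, -0.08 without wild-type 5 or with the replicate block, and -0.35 without knockout 2 or wild-type 4. Its features parted on wild-type 4, where feature 11106 read -1.05 and feature 19271 read 1.40, so the gene's value on that array averages opposite readings.

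Sesn2 (chr4:132492804-132510456), a sestrin that restrains the growth kinase complex mTORC1, and Ccng1 (chr11:40748552-40755309), cyclin G1, which brings a phosphatase to Mdm2, had group means within 0.02 of each other. Sesn2 averaged -0.0044 ± 0.145 (SD, n = 4) in knockout and 0.0069 ± 0.163 (SD, n = 5) in wild-type, a difference of -0.01 (95% interval -0.28 to 0.26). Its near-zero mean joins unlike features, assigned to different transcript records. Feature 31712 lay above the pool on all 9 arrays, with means of 0.37 in knockout and 0.49 in wild-type, and feature 36648 lay below it on all 9, with means of -0.38 in knockout and -0.48 in wild-type. In wild-type both passed against the pool when features were tested singly (limma adjusted p = 0.00548 and 0.014). Ccng1 averaged -0.25 ± 0.24 (SD, n = 4) in knockout and -0.25 ± 0.28 (SD, n = 5) in wild-type, a difference of 0.01 (95% interval -0.40 to 0.41). The 95% intervals of both genes still admit a genotype difference of either sign. The Ccng1 features differed between the genotypes by 0.13 (feature 13688) and -0.12 (feature 34175).

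**Figure D2:**
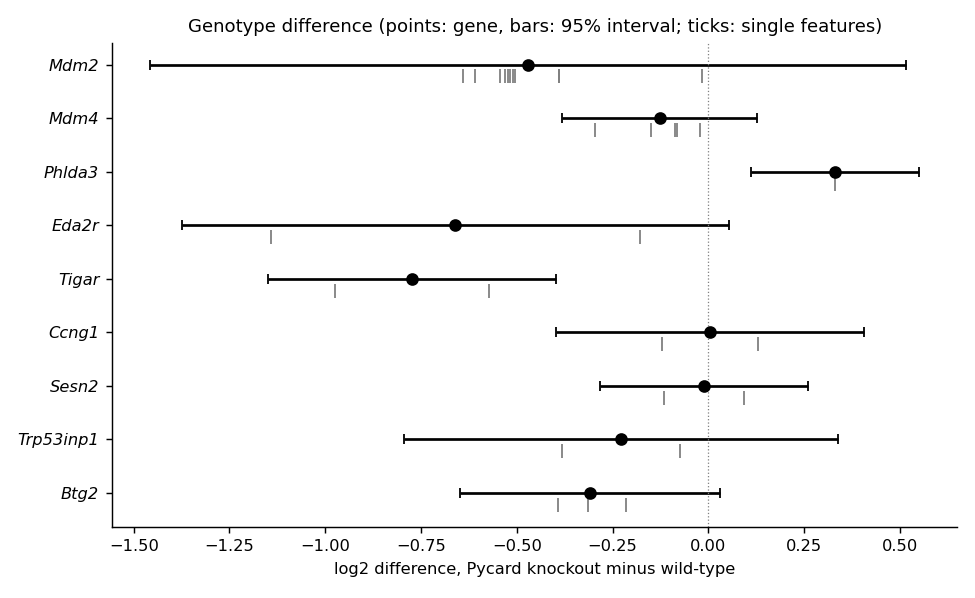
Log2 difference of Pycard knockout minus wild-type (horizontal axis) for 9 p53 network genes. Points with bars are limma estimates with 95% intervals from 4 knockout and 5 wild-type arrays, and grey ticks are single array features; the intervals of Tigar (-1.15 to -0.40) and Phlda3 (0.11 to 0.55) leave out 0 before correction for the number of values tested.

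The inhibitors of p53 are Mdm2 (chr10:117688875-117710758) and Mdm4 (chr1:132986105-133030587). Mdm2 read -0.87, -0.53, -0.74 and -0.05 in knockout samples 1 to 4, against -0.84, -0.67, -0.43, 1.27 and 0.29 in wild-type samples 1 to 5. The wild-type group thus spanned both the next to lowest and the highest value, and its SD of 0.87 was the largest of the 9 genes. Mdm2 averaged -0.55 ± 0.36 (SD, n = 4) in knockout and -0.08 ± 0.87 (SD, n = 5) in wild-type. The genotypes differed by -0.47 with an SE of 0.432 (95% interval -1.46 to 0.52, limma adjusted p = 0.948). That value was -0.13 without wild-type 4, -0.30 with title style as a block and -0.06 with array weights.

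The 3 number-titled arrays held the highest Mdm2 values. They lay between -0.05 and 1.27, and the 6 letter-titled arrays between -0.87 and -0.43. With genotype in the same limma fit, number-titled arrays were higher by 1.13 (SE 0.259, adjusted p = 0.0373 over all values). The genotype difference was -0.06 in letter-titled arrays and -0.83 in number-titled arrays, and a test of the difference between these gave limma adjusted p = 0.998. Ccng1 was likewise higher on number-titled arrays, by 0.45 (SE 0.105, limma adjusted p = 0.0402). Its values ran from -0.05 to 0.10 on number-titled arrays and from -0.54 to -0.21 on letter-titled ones. Of its features, 34175 read higher on each number-titled array than on any letter-titled one. Feature 13688 overlapped, with letter-titled knockout 1 (-0.113) above wild-type 4 (-0.25) and wild-type 5 (-0.23). Among all values 4.13% of values passed as higher and 5.89% as lower on number-titled arrays. The other 7 genes did not pass between the title styles. What the styles stand for was not tested.

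Of the 11 Mdm2 features, 10 carried this pattern and 1 did not, although all share 1 transcript accession. The 10 averaged -0.97, -0.60, -0.81 and -0.05 in knockout samples 1 to 4, against -0.91, -0.76, -0.48, 1.37 and 0.32 in wild-type samples 1 to 5. On wild-type 4 they ran from 1.20 to 1.76, and on knockout 1 from -1.17 to -0.76. Feature 9377 stayed between -0.18 and 0.26 over the 9 arrays, with means of 0.06 in knockout and 0.08 in wild-type. The gene average weights all 11 equally and so follows the 10. Whether the 10 are repeated spots of 1 probe was not tested, so they are not counted as independent measurements.

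**Figure D3:**
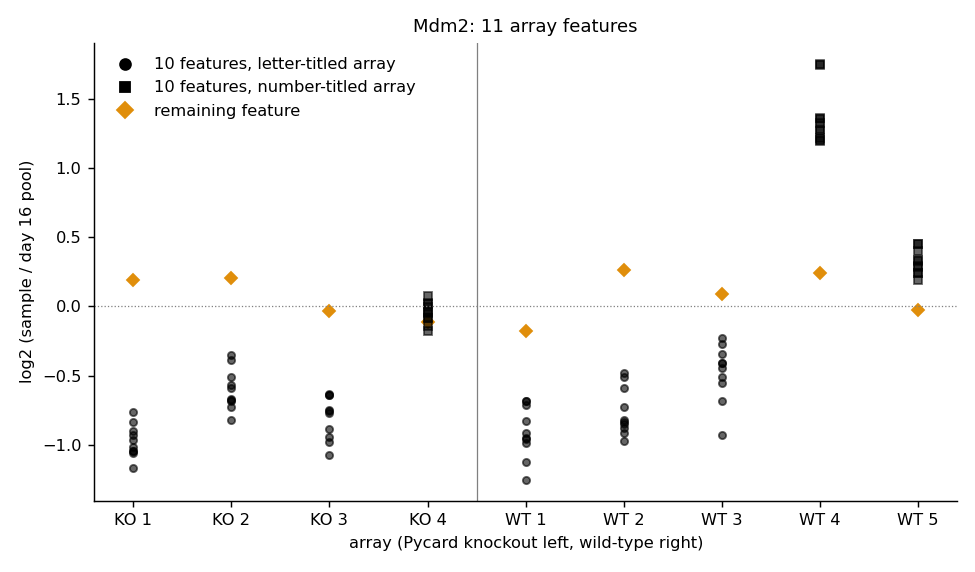
Log2 ratio over the day 16 pool (vertical axis) of the 11 Mdm2 features on each array, Pycard knockout left and wild-type right. Black points are the 10 features that move together (circles on letter-titled and squares on number-titled arrays) and orange diamonds are feature 9377; the 10 stand above 1 only on wild-type 4.

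Mdm4 had small ratios throughout. It read -0.12, 0.10, -0.11 and -0.23 in knockout samples 1 to 4, against 0.12, 0.14, 0.04, -0.21 and 0.10 in wild-type samples 1 to 5. The groups overlapped through knockout 2 and wild-type 4. Between arrays of the same replicate number, knockout minus wild-type was -0.242, -0.035, -0.145 and -0.025, and the fit with the replicate block gave limma adjusted p = 0.758. Mdm4 averaged -0.09 ± 0.14 (SD, n = 4) in knockout and 0.04 ± 0.14 (SD, n = 5) in wild-type, a difference of -0.13 (SE 0.112, limma adjusted p = 0.948). It was -0.08 without knockout 4, -0.19 without knockout 2 and -0.06 with the median over features. On wild-type 4 its 5 features, not all assigned to the same transcript record, ranged from -0.79 to 0.69. The gene's average there hides readings of both signs.

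Against the day 16 pool, Eda2r, Tigar, Btg2 and Trp53inp1 were higher and Phlda3 lower in wild-type SmoA1 cerebellum. These 5 of 9 genes passed at limma adjusted p under 0.05, 4 as higher where 12.9% of all values passed and 1 as lower where 12.1% did. The wild-type mean of Eda2r lay 2.48 above the pool in log2 (SE 0.209, limma adjusted p = 0.000249) and Tigar 1.01 above it (SE 0.109, limma adjusted p = 0.000518), a ratio of 2.01. Btg2 stood at 0.71 (SE 0.0990, limma adjusted p = 0.00145) and Phlda3 at -0.82 (SE 0.0640, limma adjusted p = 0.000231). Trp53inp1 stood at 0.65 (limma adjusted p = 0.0217), a call lost without wild-type 1, 2 or 5. Tested singly, its feature 19271 passed (limma adjusted p = 0.0018) and its feature 11106 did not (limma adjusted p = 0.463).

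In knockout SmoA1 cerebellum, Eda2r (limma adjusted p = 0.00583) was higher and Phlda3 (limma adjusted p = 0.00774) lower than the pool. Among all values 4.28% passed as higher and 3.35% as lower in this comparison. Tested singly, Eda2r feature 2168 passed in knockout (limma adjusted p = 0.00356). Its feature 4382 did not (limma adjusted p = 0.0831) and read -0.175 on knockout 3. Knockout Tigar, at 0.23 with an interval of -0.05 to 0.51, did not pass (limma adjusted p = 0.300), and stood at 0.10 without knockout 3. Knockout Btg2, at 0.40 with an interval of 0.15 to 0.66, missed the threshold (limma adjusted p = 0.0642). It passed with title style as a block (limma adjusted p = 0.0325), after quantile normalization (0.0380) and with array weights (0.0289). Both comparisons use the same pool, which has no spread of its own here, and a call in 1 genotype alone is not a difference between genotypes, which the direct comparison tested and did not call for any of these genes. Of the 9 genes, 2 were above the pool and 1 below it on all 9 arrays, beside 11.1% of all values above it and 3070 of the 30654 values below it throughout.

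**Figure D4:**
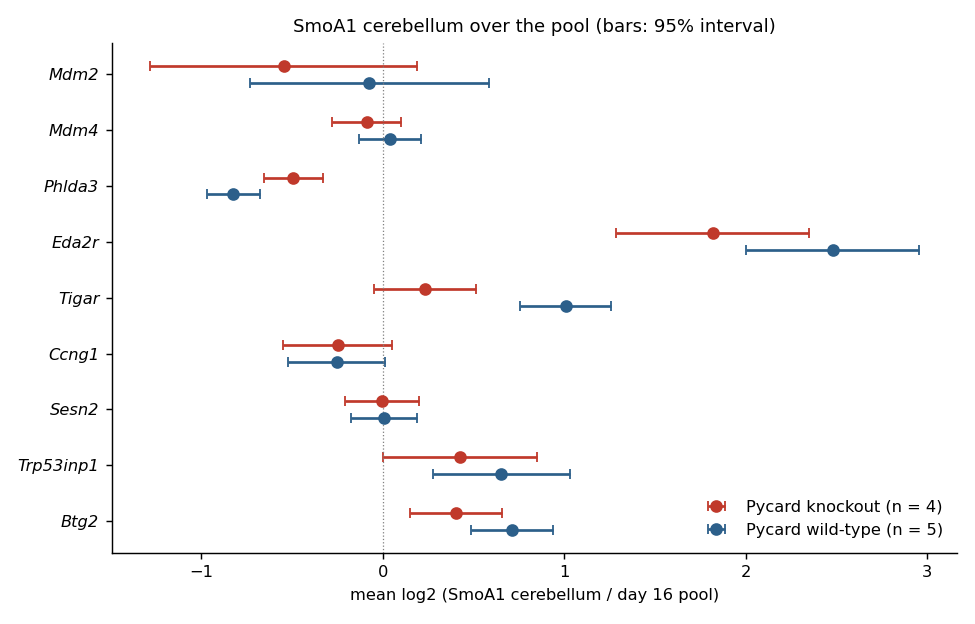
Mean log2 ratio of SmoA1 cerebellum over the day 16 pool (horizontal axis) for 9 p53 network genes, with 95% limma intervals, in Pycard knockout (red, upper point, n = 4) and wild-type (blue, lower point, n = 5). Eda2r stands furthest right (1.82 in knockout and 2.48 in wild-type), and both intervals of Phlda3 lie left of 0.

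The rest of the p53 pathway was read from 4 lists of 59 genes, of which 54 were measured. None of the 54 passed between the genotypes in limma, and 4 had an unadjusted p under 0.05, where 5.4% of all values did. Regulators and relatives of p53 (20 measured) had a median genotype difference of -0.08, with 15 lower in knockout. Targets in cell cycle arrest (11 measured) had a median of -0.0036, targets in cell death (12 measured) -0.08, and targets in metabolism and repair (11 measured) 0.03, beside 0.0079 over all values.

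Among the regulators, the checkpoint kinase genes Chek1 and Chek2, whose products phosphorylate p53 or its partners after DNA damage, had the largest of the 20 differences. Chek1 averaged 1.80 ± 0.91 (SD, n = 4) in knockout and 3.20 ± 0.79 (SD, n = 5) in wild-type, with overlap (difference -1.40, limma adjusted p = 0.917). Chek2 averaged 0.24 ± 0.76 in knockout and 1.15 ± 0.41 in wild-type (difference -0.91, limma adjusted p = 0.917). Cdkn2a, whose product Arf shields p53 from Mdm2, averaged 0.44 ± 0.32 in knockout and 0.84 ± 0.36 in wild-type (limma adjusted p = 0.932), over 10 features that scattered widely and include exact zeros. Usp10, a ubiquitin protease that stabilises p53, averaged 0.27 in knockout and 0.62 in wild-type (limma adjusted p = 0.917), Rpl11, a ribosomal protein that can hold Mdm2 back, 0.44 in knockout and 0.66 in wild-type, and Ppm1d, the phosphatase that turns p53 signalling down, 0.00 in knockout and 0.02 in wild-type.

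Of the arrest targets, Cdkn1a, the p21 inhibitor of cyclin-dependent kinases, lay below the pool on all 9 arrays. Its log2 ratios were between -0.46 and -0.34 in knockout, against -0.66, -0.27, -0.16, -0.95 and -1.12 in wild-type samples 1 to 5. The knockout values sat inside the wild-type range, and the difference of 0.25 (SE 0.207) had limma adjusted p = 0.948. On letter-titled arrays knockout ran from -0.456 to -0.348 and wild-type from -0.664 to -0.158. The lowest wild-type values, on wild-type 4 and 5, came from number-titled arrays, where knockout 4 read -0.337. Wild-type Cdkn1a was lower than the pool (mean -0.63, limma adjusted p = 0.0114), which places it with Phlda3 and apart from Eda2r, Tigar and Btg2. Ckap2 and Gtse1, a spindle protein and a restrainer of p53 in G2 that are both made mainly in dividing cells, averaged 1.81 and 1.89 in knockout against 2.93 and 3.06 in wild-type. Ckap2 did not overlap between the genotypes (difference -1.12, limma adjusted p = 0.917).

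Of the death targets, Bid and Siva1, both promoters of apoptosis, were higher than the pool in either genotype. Bid averaged 0.91 in knockout and 1.24 in wild-type (limma adjusted p = 0.00736 for knockout and 0.000309 for wild-type, each against the pool). Siva1 averaged 0.91 in knockout and 1.33 in wild-type. Apaf1, the scaffold of the apoptosome, averaged 0.14 in knockout and 0.58 in wild-type (difference -0.44, limma adjusted p = 0.917). It read 0.945 and 1.02 on number-titled wild-type 4 and 5, against 0.235 to 0.364 on letter-titled wild-type 1 to 3. Knockout 4, also number-titled, read 0.196. Pmaip1, the BH3-only protein Noxa, averaged -0.44 in knockout and 0.01 in wild-type. In metabolism and repair, the differences were small. Cpt1c, a carnitine palmitoyltransferase of neurons, differed by 0.21 and Ddb2, a sensor of ultraviolet damage, by 0.18 (limma adjusted p = 0.952 each). Prkab1 and Prkab2, subunits of the energy sensor AMPK, and Lpin1, a phosphatidate phosphatase, differed by -0.03, 0.10 and 0.0033. Against the pool, wild-type cerebellum had 7 regulators higher and 1 lower, 4 arrest targets higher and 2 lower, 5 death targets higher and 2 lower, and 1 metabolism and repair gene each way, where 12.9% of all values passed as higher and 12.1% as lower.

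**Figure D5:**
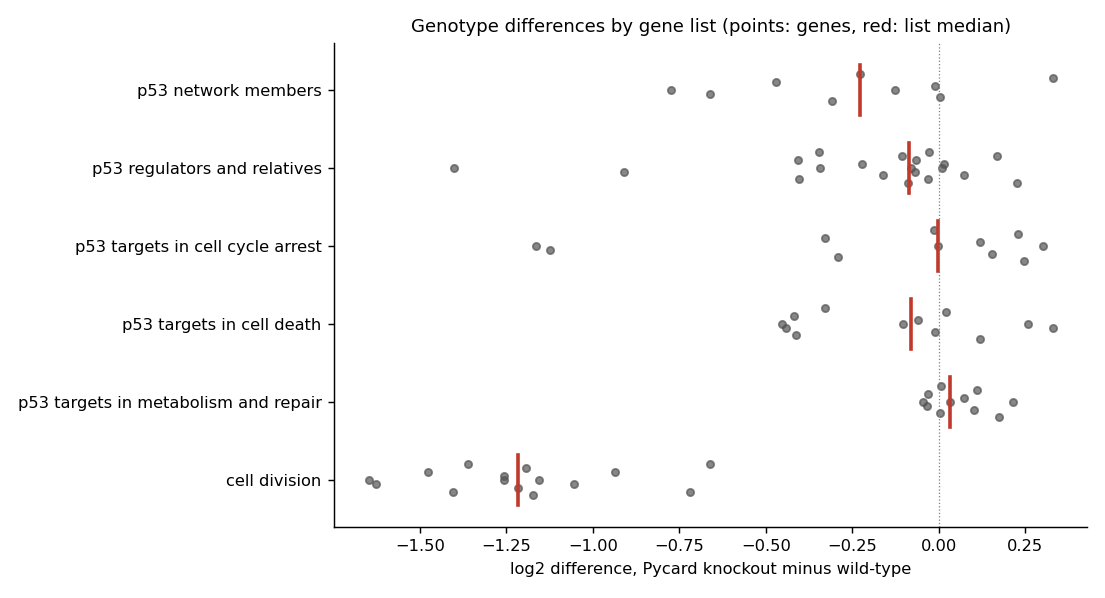
Log2 difference of Pycard knockout minus wild-type (horizontal axis) for the genes of 6 lists, 1 point per gene, with the list median in red. Medians of the p53 lists lie between -0.23 and 0.03, while all 15 cell division genes lie left of 0 with a median of -1.22.

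Markers of dividing cells also had lower means in knockout. The mean of 15 cell division genes was 0.83, 2.35, 2.76 and 1.79 in knockout samples 1 to 4, against 2.73, 3.05, 2.93, 3.68 and 3.32 in wild-type samples 1 to 5. All 15 were lower in knockout, 0 passed in limma, and 15 had an unadjusted p under 0.05. Of the 15, 5 did not overlap between the genotypes, Top2a, Plk1 and Cenpe among them. Of all values 0.946% did not overlap with knockout lower. Among all values 47.8% were lower in knockout and 5.4% had an unadjusted p under 0.05. Top2a, a topoisomerase, averaged 2.24 in knockout and 3.64 in wild-type, Plk1, a mitotic kinase, 1.66 in knockout and 2.85 in wild-type, and Cenpe, a kinetochore motor, 1.86 in knockout and 3.51 in wild-type. Knockout 1, lowest of the 9 arrays in division genes, was also lowest in Mdm2, Eda2r, Tigar, Trp53inp1 and Btg2. For Mdm2 it was close to wild-type 1 (-0.868 against -0.845). It was not lowest in Mdm4, Ccng1 or Sesn2, and it was highest in Phlda3 (-0.314). Wild-type 4, highest in division genes, was highest in Mdm2 and Ccng1. Among wild-type arrays it was lowest in Trp53inp1 (0.175) and Mdm4 (-0.208). Without knockout 1 the genotype difference was -0.36 for Mdm2, -0.48 for Eda2r, -0.67 for Tigar, -0.06 for Trp53inp1 and -0.23 for Btg2, and 0.27 for Phlda3. In bulk tissue, fewer cells of a type and less RNA per cell cannot be told apart.

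In marker lists of cell types no gene passed between the genotypes. Unadjusted p in limma was under 0.05 for 7 of 8 oligodendrocyte, 5 of 10 progenitor and 3 of 5 Purkinje cell genes. The same held for 2 of 6 astrocyte and 2 of 8 microglia genes. It held for 0 genes of the other lists and for 5.4% of all values. Mean log2 ratios of 10 granule neuron progenitor genes ran from 0.19 to 1.35 in knockout and from 1.24 to 1.98 in wild-type. Oligodendrocyte genes (8 measured) ran from -0.96 to -0.68 in knockout and from -1.66 to -1.07 in wild-type, all 8 higher in knockout. Microglia and macrophage genes (8 measured) ran from -0.26 to 0.74 in knockout and from 0.59 to 0.98 in wild-type, all 8 lower in knockout. Mature granule neuron genes (8 measured) ran from -0.37 to -0.01 in knockout and from -0.63 to -0.12 in wild-type, and Purkinje cell genes (5 measured) from -0.99 to -0.10 in knockout and from -1.12 to -0.80 in wild-type. Astrocyte genes (6 measured) ran from -0.71 to -0.31 in knockout and from -1.03 to -0.49 in wild-type, and endothelial genes (5 measured) from -0.28 to -0.03 in knockout and from -0.47 to -0.16 in wild-type. Red blood cell genes (3 measured) ran from -0.70 to 0.81 in knockout and from -0.38 to 1.05 in wild-type, and choroid plexus genes (4 measured) from -2.75 to 0.21 in knockout and from -2.54 to 0.68 in wild-type. Except for astrocyte genes (4 higher and 2 lower in knockout), all genes of each list went the same way. Progenitor, microglia, red blood cell and choroid plexus genes had lower means in knockout, and the other lists higher ones. Among all values 51.4% were higher and 47.8% lower in knockout. Ratios over a cerebellar pool show no absolute level, so they cannot show whether a marker is absent. The part that any of these cell types or cell division had in the values of the p53 genes was not tested.

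The genes nearest to Tigar over the 9 arrays were Igf2bp3, Lmcd1 and Ddx11, found among 12963 named genes with an SD of at least 50% of that of Tigar. Nearness was the root mean square difference of the log2 ratios after each gene's own mean was taken away, and it was 0.134 for Igf2bp3, 0.169 for Lmcd1 and 0.177 for Ddx11, beside an SD of 0.467 for Tigar itself. Igf2bp3, an oncofetal RNA-binding protein, read -0.05, 0.32, 0.47 and 0.35 in knockout samples 1 to 4, against 0.82, 1.17, 1.12, 0.96 and 1.11 in wild-type samples 1 to 5. Like Tigar, it was lowest on knockout 1 and did not overlap between the genotypes. Its choice as the gene nearest to Tigar on these arrays makes both likely. Lmcd1, a LIM domain protein, averaged 0.71 in knockout and 1.34 in wild-type, and Ddx11, a DNA helicase, 0.46 in knockout and 1.02 in wild-type.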

How the data were processed

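Values are the deposited log2 ratios of sample (Cy5) over pool (Cy3). The submitters' processing notes name Agilent Feature Extraction as the tool. How it corrected background, balanced the dyes or filtered spots, and in which version, is not given in the sources used. Base 2 was read from the values, since every array holds some beyond 4.82, the most a log10 ratio of 16-bit signals can reach. Direction follows the dyes per the labels. Medians of the 9 arrays lie between 0 and 0.013. No intensities accompany the ratios, so dim spots were kept, and for arrays their number limits the precision.

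The 45220 features were named through the platform's annotation (33653 with 1 symbol, 56 with several, 11511 with none), and symbols were compared through gene identifiers with RefSeq GRCm38.p6, which changed 0. Features of 1 symbol were averaged and the others kept singly. That gave 30654 values per array. Knockout was compared with wild-type, and each group mean with 0, by limma 3.58.1 in R 4.3.3 (lmFit, eBayes, two-sided, no covariate, all 9 arrays), with Benjamini-Hochberg adjustment over all values and a threshold of 0.05. The test was checked on simulated data with independent normal noise and no title-style effect, which cannot show how it behaves where such effects are present. Exact permutation tests were two-sided.

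The genes, the lists, the tests and the other settings were chosen with earlier results of these data known. Outside the 9 genes, the text names Pycard, Cdkn1a, Cdkn2a and Ppm1d, genes of the p53 and cell division lists that ranked in the first 2 of their list by p or by size of difference, between the genotypes or for wild-type over the pool, and the 3 nearest to Tigar. The rule also foresaw genes nearest to Trp53, which is not analysed here. Replicate numbers 1 to 4 occur in both genotypes. For arrays with the same number, deviations from the group mean had correlations of 0.244, 0.247, 0.446 and 0.304. All were over 0.1, so the numbers were taken as a pairing, which the labels do not explain. Knockout 2 correlated somewhat more with wild-type 1 (0.261), however, and knockout 4 and wild-type 4 also share the number titles. Alternatives were leaving out each array, a block on replicate number or on title style, either style by itself, quantile normalization or median centring, an SD filter, zeros as missing, single features, a trended robust prior, array weights, named genes alone, 2 other thresholds and, chosen after seeing the data, feature medians and the test between title styles.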

Additional observations from a re-analysis of the deposited data

Results flagged for a closer look

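In 18 groups of arrays (9 genes in each genotype), 3 had an array far from the rest of its group by Dixon's criterion, which chance alone meets in about 1 of 20 groups. Mdm4 read -0.208 on wild-type 4, while the other wild-type arrays lay between 0.039 and 0.137. Phlda3 read -0.677 on wild-type 4, against -0.892 to -0.835 on the other wild-type arrays. Sesn2 read 0.21 on knockout 3, against -0.093 to -0.044 on the other knockout arrays.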

How the results depend on the processing

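No member of the 9 genes and none of the 54 pathway genes was called between the genotypes under any of the 24 alternatives. The lowest adjusted p was 0.107 for Tigar and 0.196 for Phlda3, both with array weights. Tigar, Eda2r, Mdm2 and Trp53inp1 kept their direction between the genotypes in all 24. Phlda3, Btg2 and Mdm4 kept it in the 23 that gave them a value, since the SD filter left them out. Among these settings, the other thresholds, named genes alone, the SD filter, the trended robust prior and zeros as missing cannot change these genes' estimates. A kept direction there was fixed in advance and is no check. Feature medians likewise could not move Tigar, Eda2r, Trp53inp1 or Phlda3. With the replicate block Tigar differed by -0.825 (SE 0.122, adjusted p = 0.751) and Phlda3 by 0.326 (adjusted p = 0.751), and the pairing changed no call of the 9 genes. Pycard lost its call with the replicate block (-3.411, adjusted p = 0.751), in letter-titled (-3.178) and number-titled arrays alone (-4.132) and after quantile normalization (-3.860). With 1 array left out Pycard ranged from -3.777 to -3.325 and kept its call only without knockout 3 or wild-type 3 (adjusted p up to 0.0962 otherwise).

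Against the pool, the count of called genes was 4 to 5 in wild-type and 2 in knockout with 1 array left out. It was 0 in both genotypes in number-titled arrays alone, where knockout has 1 array assumed to vary like the others. Array weights called 6 in knockout and 7 in wild-type. Single features, where each gene was taken at its feature with the smallest p, called 2 in knockout and 7 in wild-type. The title block and letter-titled arrays alone each called 3 in knockout and 6 in wild-type. The SD filter gave 1 in knockout and 2 in wild-type. It left out Phlda3 and Btg2, while Trp53inp1 was tested in wild-type and missed the threshold (adjusted p = 0.0839). A minimum difference of 1 gave 1 in knockout and 2 in wild-type. Pathway genes called in wild-type, 23 in the reported setting, were 20 to 23 with 1 array left out, 0 in number-titled arrays alone, 8 with the SD filter and 7 with the minimum difference.

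Signs turned for values near 0. Between genotypes, Ccng1 was at -0.019 after quantile normalization and -0.0998 to 0.0934 with 1 array left out. Sesn2 was at 0.013 in letter-titled arrays, 0.00815 after quantile normalization, 0.00940 with array weights and -0.0829 to 0.037 with 1 array left out. In knockout against the pool, Ccng1 was at 0.065 in number-titled arrays, Mdm4 at 0.000307 with array weights, and Sesn2 at 0.025 in letter-titled arrays, 0.373 by single features and -0.076 to 0.0253 with 1 array left out. In wild-type against the pool, Mdm2 was at 0.037 with the title block, 0.780 in number-titled arrays, 0.079 by single features and -0.412 to 0.117 with 1 array left out. In letter-titled arrays alone Mdm2 passed as lower than the pool in knockout (-0.710, adjusted p = 0.0274) and in wild-type (-0.646, adjusted p = 0.0176), as it did with array weights (adjusted p = 0.0302 in knockout and 0.0424 in wild-type). Wild-type Ccng1 passed as lower with the title block (adjusted p = 0.0451), in letter-titled arrays (0.0265), by single features (0.0390) and with array weights (0.0143). Array weights also called Ccng1 lower (0.0246) and Trp53inp1 higher (0.0366) in knockout. Also in wild-type, number-titled arrays put Ccng1 at 0.025, Mdm4 at -0.055 and Sesn2 at -0.0015. Sesn2 was further at -0.019 after quantile normalization, -0.048 with array weights and -0.0414 to 0.0494 with 1 array left out. By single features, the wild-type Mdm2 value was that of feature 9377, while the other 10 features averaged -0.09. The knockout Sesn2 value was that of feature 31712, while feature 36648 averaged -0.38. For wild-type Ccng1 it was feature 13688, and feature 34175 did not pass (limma adjusted p = 0.581). What caused the other shifts was not tested.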
